A study of Mus musculus with 7 samples.

Results

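The nuclear genes for the subunits of the respiratory chain and of ATP synthase were followed in macrophages sorted from the inflamed mouse colon, in mice with and without cre recombinase acting on floxed Rictor. Members were taken from the probe sets annotated with exactly 1 gene symbol, where that symbol began as the Ndufa, Ndufb, Ndufc, Ndufs, Ndufv, Uqcr, Cox4 to Cox8 and Atp5 families do or was Sdha, Sdhb, Sdhc or Sdhd. Where more than 1 probe set named a gene, the brightest by its mean over the 7 arrays was kept. This gave 80 members from 89 probe sets, of 22180 genes measured. They comprised 33 members of complex I, 4 of complex II, 8 of complex III, 17 of complex IV and 18 of complex V. The rule follows the names, so it also took in 2 pseudogenes (Atp5c1-ps and Uqcrh-ps1), Cox7a2l, a factor that joins complexes III and IV, and Ndufa4, which is placed under complex I by name although its protein sits in complex IV. Cox6c, Ndufb2, Ndufb4, Ndufs6 and Uqcr10 share their probe sets with other symbols and are not described.

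The study hybridised RNA of macrophages of the colon lamina propria to Affymetrix Mouse Gene 2.0 ST arrays, with 1 array for each sorted sample. The LysM+/cre group (4 arrays) came from Rictorfl/fl mice that carried 1 cre allele, driven from the LysM locus (Lyz2) of myeloid cells. The LysM+/+ group (3 arrays) came from Rictorfl/fl mice without cre. All mice of both groups carried floxed Rictor, the gene of a subunit of the kinase complex mTORC2, and had received 5% dextran sulphate sodium (DSS), which injures the colon epithelium, for 5 days and then plain water for 3 days. Sorted cells were positive for CD64, CD11b, MHC class II and CD45 and negative for Ly6C. There was no group with cre on unfloxed Rictor, so effects of cre and of losing Rictor cannot be told apart. The labels do not say how many animals stand behind a sample, and p-values measure only the spread between these samples.

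Complexes I and II pass electrons from NADH and succinate to ubiquinone, complex III passes them to cytochrome c, and complex IV passes them to oxygen. Complexes I, III and IV pump protons across the inner mitochondrial membrane, and ATP synthase, complex V, lets them flow back to make ATP. Most subunits are encoded in the nucleus, while a small set is encoded by mitochondrial DNA, and in macrophages the balance between respiration and glycolysis is known to differ between activation states. Nuclear subunit genes are known to be regulated in part by NRF1, by the ETS factor GABP and by YY1.

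RefSeq promoters (GRCm38.p6, 250 bases before to 50 bases after the annotated start) were matched for 64 of the 80 members. Motifs in them are described as sequence features that the choice by name did not use. A link between the motifs and the values on the arrays was not tested. The NRF1 core GCATGCGC, read on either strand, was present in 10 of the 64 promoters (15.6%), against 3.05% of all 27025 promoters and 5.69% of the promoters of genes brighter than the median gene. The longer palindromic NRF1 motif, which contains the core, was present in 7.81% of the members' promoters, against 1.07% of all and 2.25% of those of bright genes. The ETS core CCGGAAG was present in 17 of the 64 (26.6%), against 9.93% and 19.4%, and the longer CCGGAAGT in 7.81%, against 4.31% and 8.81%. The motif of YY1 was present in 4 of the 64 (6.25%), against 0.995% and 2.40%. A match of letters is not a site of binding.

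The following windows of 60 bases are all those of members named by the rule given under the processing in which a core lies wholly before the start. They are printed 5′ to 3′ on the strand of the gene and carry the motif in capitals. In the first 2 windows the capitals mark the NRF1 core (in Atp5g2 as its reverse complement), in Sdhb, the iron-sulphur subunit of complex II, and in Atp5g2, a gene of the rotating c-ring of ATP synthase.
Sdhb, chr4:140961191-140961250, plus strand: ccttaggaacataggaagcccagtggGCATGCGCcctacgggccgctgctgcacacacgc
Atp5g2, chr15:102671056-102671115, minus strand: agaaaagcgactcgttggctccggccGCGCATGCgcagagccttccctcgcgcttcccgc
In the next 5 windows the capitals mark the ETS core, which stands as its reverse complement in all but Uqcr11.
Atp5e, chr2:174464171-174464230, minus strand: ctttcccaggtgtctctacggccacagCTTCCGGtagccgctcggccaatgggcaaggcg
Sdhd, chr9:50603863-50603922, minus strand: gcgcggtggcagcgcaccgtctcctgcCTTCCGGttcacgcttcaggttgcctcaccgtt
Cox6b1, chr7:30626115-30626174, minus strand: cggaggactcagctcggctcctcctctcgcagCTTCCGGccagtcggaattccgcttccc
Uqcr11, chr10:80406855-80406914, minus strand: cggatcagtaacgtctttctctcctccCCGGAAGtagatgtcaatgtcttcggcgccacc
Uqcrh, chr4:116075071-116075130, minus strand: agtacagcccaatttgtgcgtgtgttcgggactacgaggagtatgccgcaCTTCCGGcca

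The subunit genes lay higher on the LysM+/cre arrays than on the LysM+/+ arrays by a small amount that was shared by nearly all of them, and no single gene passed the test. Of the 80 members, 75 had a log2 difference (LysM+/cre minus LysM+/+) above 0 (93.8%), where 51.3% of all 22180 genes and 56.1% of the genes brighter than the median gene did. The median over the members was 0.20, which is 1.15-fold, with a range from -0.24 to 0.61. Over all genes the median was 0.004, with the 5th and 95th percentiles at -0.41 and 0.37. After adjustment over all genes 0 of the 80 members differed in limma's test (0% of all genes were called), and the smallest adjusted p of a member was 0.354. At an unadjusted p under 0.05, 21 members (26.2%) were higher and 0 lower, against 6.56% of all genes higher and 4.93% lower. Among bright genes these shares were 11.5% and 6.59%. In 18 members (22.5%) every LysM+/cre array lay above every LysM+/+ array, against 5.23% of all genes and 8.88% of bright genes. The reverse, every LysM+/cre array below, was seen in 0 members, against 3.56% of all genes and 4.63% of bright genes. Over all genes 1456 were higher and 1093 lower at an unadjusted p under 0.05, and with array medians set equal these counts were 2001 and 796.

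The array of LysM+/+ sample 3 stood apart from the other controls in these genes, and several counts rest on it. It held the lowest value for 57 of the 80 members (71.2%), where it held the lowest for 19.0% of all genes and 22.1% of bright genes. LysM+/cre arrays 1 and 2 held the highest value for 64 members (80%), against 29.1% of all genes and 33.4% of bright genes. The median deviation of the members from their own means over the 7 arrays was 0.14, 0.18, 0.013 and 0.014 on LysM+/cre arrays 1 to 4, against -0.019, -0.026 and -0.265 on LysM+/+ arrays 1 to 3. The groups did not overlap in this median, but LysM+/cre arrays 3 and 4 lay close to LysM+/+ arrays 1 and 2. Without LysM+/+ array 3, 68 of the 80 members were above 0 (50.9% of all genes), their median was 0.12, and 5 were higher at an unadjusted p under 0.05 (4.55% of all genes). Without LysM+/cre array 1 or without LysM+/cre array 2, 10 and 9 members were higher at that level (4.4% and 5.24% of all genes), with medians of 0.19 and 0.18. The medians of the 5 complexes without LysM+/+ array 3 were 0.15 (complex I), 0.14 (II), 0.11 (III), 0.033 (IV) and 0.18 (V). In a bulk sample of sorted cells, fewer cells of a type and less RNA per cell cannot be told apart.

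**Figure D1:**
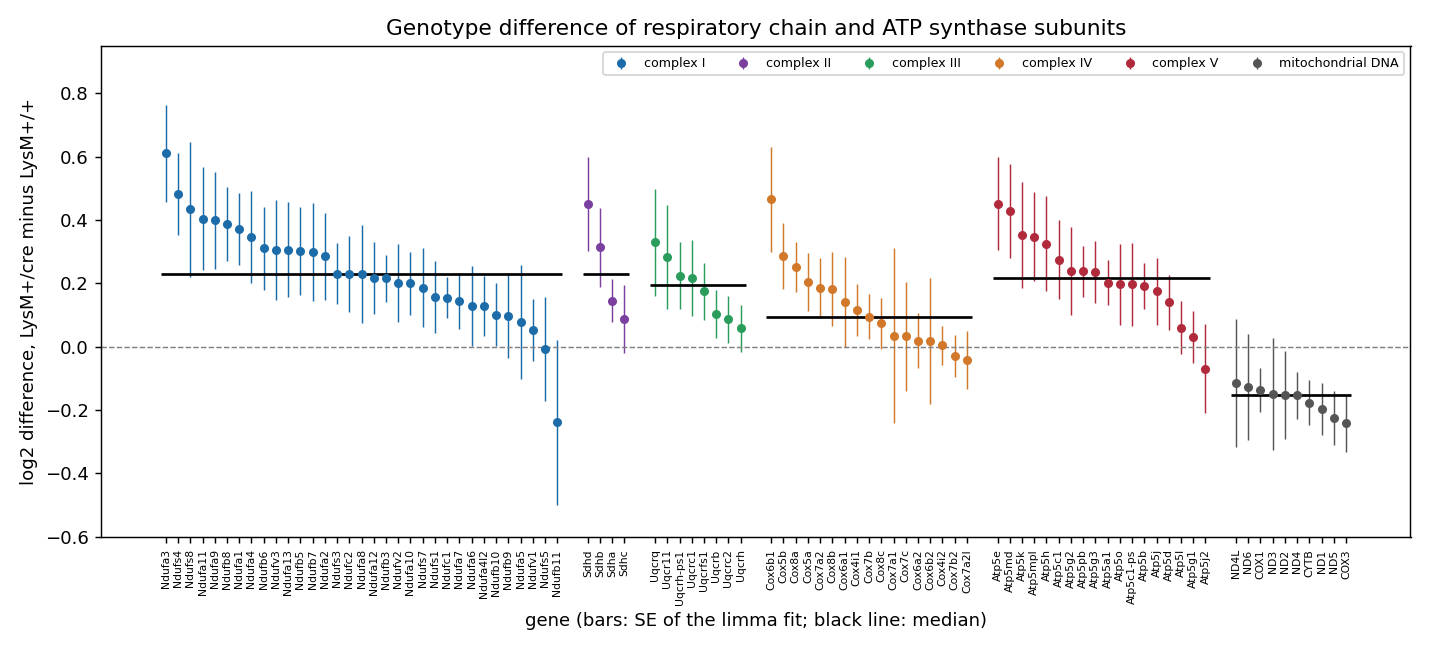
Log2 difference (LysM+/cre minus LysM+/+) of each of the 80 members by complex and of the 10 measured subunits of mitochondrial DNA, with the SE of the limma fit as bars and the median of each set as a black line. Of the 80 members 75 lie above 0, with medians from 0.094 in complex IV to 0.23 in complex II, and the 10 subunits of mitochondrial DNA all lie below 0.

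**Figure D2:**
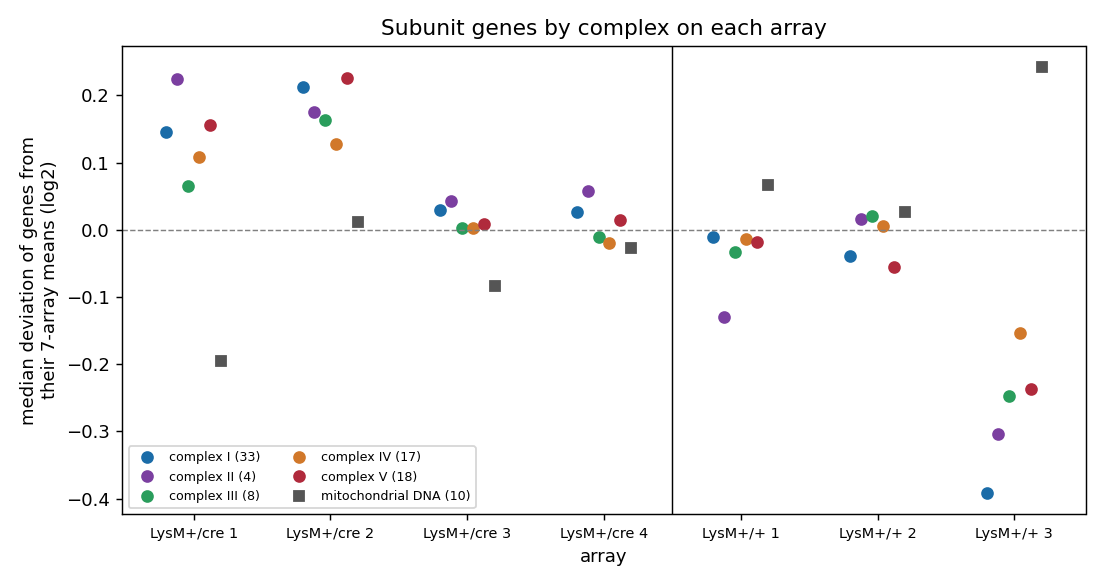
Median deviation of the members of each complex, in log2 units, from their own means over the 7 arrays, by array, with LysM+/cre arrays left of LysM+/+ arrays. All 5 complexes are lowest on LysM+/+ array 3 and highest on LysM+/cre array 1 or 2, and the subunits encoded by mitochondrial DNA are highest on LysM+/+ array 3.

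Complex I, the NADH dehydrogenase, had 31 of 33 members above 0, with a median of 0.23 and a range from -0.24 to 0.61. In 9 of them (27.3%) the difference reached an unadjusted p under 0.05, where 6.56% of all genes and 11.5% of bright genes were higher. In 9 (27.3%) every LysM+/cre array lay above every LysM+/+ array, against 5.23% of all genes and 8.88% of bright genes. Ndufa3, an accessory subunit, had the smallest p of all members. Its log2 signal was 9.49, 9.21, 9.31 and 9.17 on the LysM+/cre arrays, against 9.02, 8.44 and 8.59 on the LysM+/+ arrays. Every LysM+/cre array was above every LysM+/+ array, and the difference was 0.61 ± 0.15 (SE, limma adjusted p = 0.354). Ndufs4, an accessory subunit needed for assembly of the NADH-binding module, had 9.43, 9.28, 9.06 and 9.24 on the LysM+/cre arrays, against 8.97, 8.81 and 8.53 on the LysM+/+ arrays. These groups did not overlap either, and the difference was 0.48 ± 0.13 (SE, limma adjusted p = 0.362).

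Ndufa1, a membrane-arm accessory subunit, had 11.10, 11.03, 11.04 and 10.88 on the LysM+/cre arrays, against 10.72, 10.82 and 10.39 on the LysM+/+ arrays, a difference of 0.37 ± 0.11 (SE). The lowest LysM+/cre array thus lay just above the highest LysM+/+ array. Ndufb8 and Ndufb3, both accessory subunits of the membrane arm, also did not overlap between groups, with differences of 0.39 ± 0.12 and 0.22 ± 0.074 (SE). Ndufb8 had 8.40, 8.33, 8.13 and 8.10 on the LysM+/cre arrays, against 8.03, 7.88 and 7.65 on the LysM+/+ arrays. Ndufb3 had 8.63, 8.66, 8.55 and 8.54 on the LysM+/cre arrays, against 8.45, 8.44 and 8.24 on the LysM+/+ arrays. All of these 5 members were lowest on LysM+/+ array 3 except Ndufa3, which was lowest on LysM+/+ array 2. Without LysM+/+ array 3 their differences were 0.565 (Ndufa3), 0.36 (Ndufs4), 0.25 (Ndufa1), 0.29 (Ndufb8) and 0.15 (Ndufb3).

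The 6 measured nuclear core subunits of complex I had a median difference of 0.19. Among them are those that carry the flavin and the iron-sulphur clusters. Of the 6, 1 (16.7%) was higher at an unadjusted p under 0.05, against 11.5% of bright genes. The 27 other members had a median of 0.23, and 8 (29.6%) reached that level. Core subunits of complex I that mitochondrial DNA encodes are not members. Those measured had differences below 0 and are described further below. Ndufs8, an iron-sulphur subunit, had 8.56, 8.68, 8.26 and 8.29 on the LysM+/cre arrays, against 8.25, 8.28 and 7.50 on the LysM+/+ arrays. LysM+/+ array 3 was far below the others, and the difference was 0.43 ± 0.21 (SE) with that array and 0.18 without it. Ndufs7, next to it in the electron path, differed by 0.19 ± 0.13, Ndufs1, the largest core subunit, by 0.16 ± 0.11, and Ndufv1, which binds NADH and the flavin, by 0.053 ± 0.099 (SE). In these 3 the groups overlapped, and without LysM+/+ array 3 the values were 0.031 (Ndufs7), 0.16 (Ndufs1) and -0.010 (Ndufv1). The 2 members of complex I below 0 were both dim, with means under that of the median gene. Ndufb11 had 4.68, 4.44, 3.81 and 4.56 on the LysM+/cre arrays, against 4.28, 4.48 and 5.07 on the LysM+/+ arrays, and Ndufs5 differed by -0.0062 ± 0.16 (SE).

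Complex II, succinate dehydrogenase, which also belongs to the citric acid cycle, had all 4 members above 0, with a median of 0.23. Sdhd, a membrane anchor, had 8.22, 8.22, 7.93 and 7.93 on the LysM+/cre arrays, against 7.56, 7.93 and 7.39 on the LysM+/+ arrays. LysM+/cre arrays 3 and 4 barely exceeded LysM+/+ array 2, and the difference was 0.45 ± 0.15 (SE, limma adjusted p = 0.405). Sdhb, the iron-sulphur subunit, had 9.14, 8.89, 8.88 and 8.89 on the LysM+/cre arrays, against 8.66, 8.85 and 8.39 on the LysM+/+ arrays, a difference of 0.31 ± 0.12 (SE). The groups did not overlap, and LysM+/cre array 1 lay apart from the other three. Sdha, the flavin subunit that oxidises succinate, had 9.46, 9.35, 9.37 and 9.40 on the LysM+/cre arrays, against 9.35, 9.25 and 9.15 on the LysM+/+ arrays, a difference of 0.15 ± 0.068 (SE). Sdhc, the other anchor, had 6.51, 6.73, 6.28 and 6.45 on the LysM+/cre arrays, against 6.35, 6.45 and 6.42 on the LysM+/+ arrays. For Sdhc all LysM+/+ arrays lay inside the range of the LysM+/cre arrays, and the difference was 0.087 ± 0.11 (SE). Without LysM+/+ array 3 the 4 values were 0.33 (Sdhd), 0.19 (Sdhb), 0.093 (Sdha) and 0.093 (Sdhc).

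Complex III, the cytochrome bc1 complex, had all 8 members above 0, with a median of 0.20, and 0 of them reached an unadjusted p under 0.05. Uqcrfs1, the Rieske iron-sulphur protein, was the single member whose groups did not overlap (12.5%, against 5.23% of all genes and 8.88% of bright genes). It had 7.23, 7.46, 7.16 and 7.13 on the LysM+/cre arrays, against 7.05, 7.04 and 7.11 on the LysM+/+ arrays, a difference of 0.17 ± 0.091 (SE, limma adjusted p = 0.501). Uqcrq, a small subunit of the ubiquinone-binding part, had the largest difference of the complex, 0.33 ± 0.17 (SE). It had 8.0035, 8.03, 7.78 and 7.82 on the LysM+/cre arrays, against 7.84, 7.72 and 7.17 on the LysM+/+ arrays. LysM+/+ array 1 lay inside the LysM+/cre range, and LysM+/+ array 3 far below it. Uqcr11, another small subunit, differed by 0.28 ± 0.16, and the core protein Uqcrc1 by 0.22 ± 0.12 (SE). The second core protein Uqcrc2 and the hinge protein Uqcrh, which helps cytochrome c to dock, differed by 0.086 ± 0.074 and 0.058 ± 0.075 (SE). The pseudogene Uqcrh-ps1 differed by 0.22 ± 0.11 (SE). The differences without LysM+/+ array 3 were 0.20 (Uqcrfs1), 0.125 (Uqcrq), 0.11 (Uqcr11), 0.11 (Uqcrc1), 0.086 (Uqcrc2), -0.001 (Uqcrh) and 0.12 (Uqcrh-ps1).

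Complex IV, cytochrome c oxidase, had 15 of 17 members above 0 and the lowest median of the 5 complexes, 0.094. Its list holds 7 isoforms known mainly from muscle, lung, testis or brown fat (Cox4i2, Cox6a2, Cox6b2, Cox7a1, Cox7b2, Cox8b and Cox8c), of which 3 were brighter than the median gene. These 7 had a median of 0.019, with a range from -0.030 to 0.18, and 0 reached an unadjusted p under 0.05. The 10 other members, all brighter than the median gene, had a median of 0.16. Of these 10, 3 (30%) were higher at that level, against 11.5% of bright genes. This division was made after the values had been seen and is given as a description. The isoforms' differences were 0.0044 (Cox4i2), 0.019 (Cox6a2), 0.017 (Cox6b2), 0.035 (Cox7a1), -0.030 (Cox7b2), 0.18 (Cox8b) and 0.073 (Cox8c).

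Among the widely expressed subunits, Cox8a had 10.32, 10.23, 10.15 and 10.11 on the LysM+/cre arrays, against 10.06, 9.94 and 9.85 on the LysM+/+ arrays. The groups did not overlap, and the difference was 0.25 ± 0.079 (SE, limma adjusted p = 0.396). Cox6b1, which faces the space between the membranes, had 8.79, 8.91, 8.46 and 8.48 on the LysM+/cre arrays, against 8.36, 8.34 and 7.89 on the LysM+/+ arrays, a difference of 0.47 ± 0.17 (SE). It was the second member of the complex without overlap, of 17 (11.8%), against 5.23% of all genes and 8.88% of bright genes. Cox5b, a zinc-binding subunit on the matrix side, had 9.97, 9.91, 9.81 and 9.71 on the LysM+/cre arrays, against 9.76, 9.44 and 9.48 on the LysM+/+ arrays, with LysM+/+ array 1 inside the LysM+/cre range. Its difference was 0.29 ± 0.10 (SE). Cox5a differed by 0.20 ± 0.091, Cox7a2 by 0.19 ± 0.093 and Cox4i1, the first subunit to join the mitochondrially encoded core, by 0.11 ± 0.082 (SE). Cox7a2l, the factor of supercomplexes, differed by -0.041 ± 0.091 (SE). Ndufa4, counted by name under complex I, differed by 0.35 ± 0.14, and its hypoxia-inducible relative Ndufa4l2, dimmer than the median gene, by 0.13 ± 0.095 (SE). With LysM+/+ array 3 left out the differences were 0.20 (Cox8a), 0.31 (Cox6b1), 0.25 (Cox5b), 0.13 (Cox5a), 0.11 (Cox7a2), 0.033 (Cox4i1), -0.084 (Cox7a2l), 0.20 (Ndufa4) and 0.18 (Ndufa4l2).

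**Figure D3:**
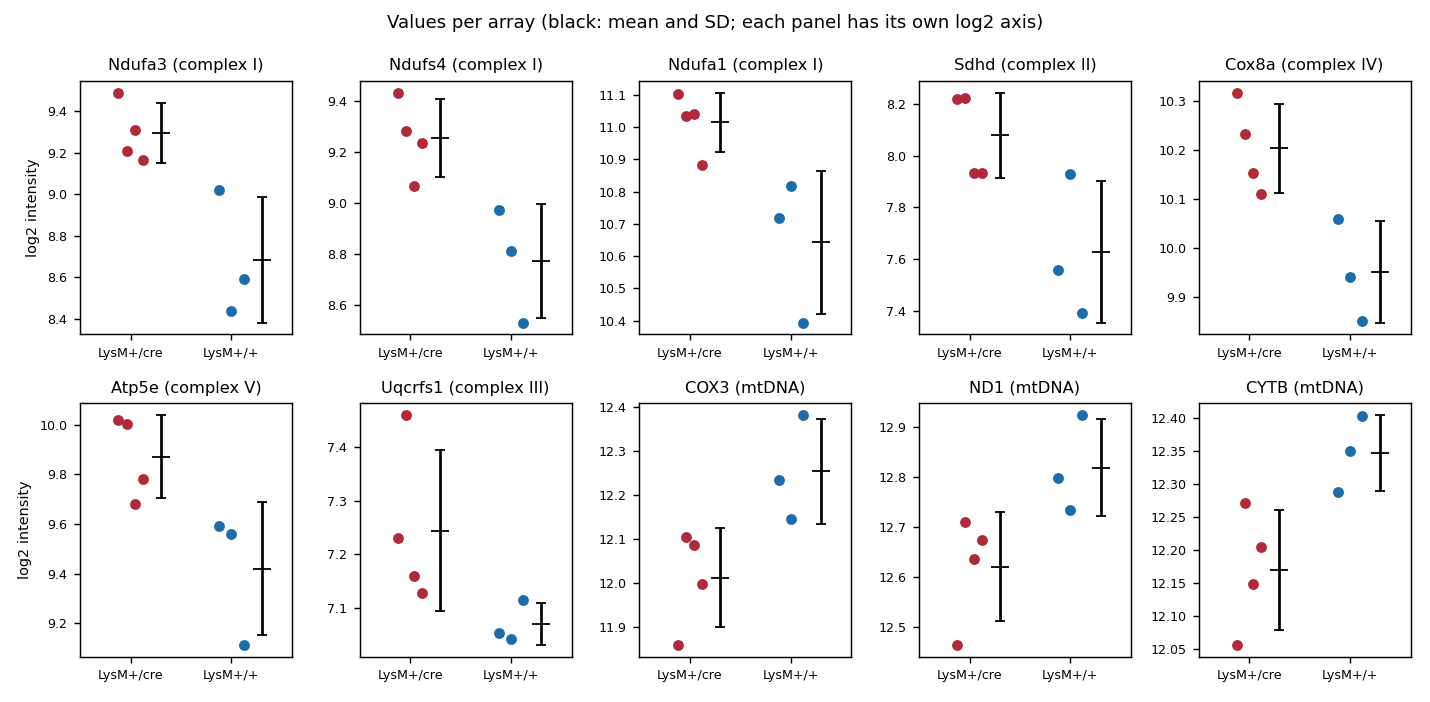
Log2 intensity on each array for 7 members and 3 subunits of mitochondrial DNA, LysM+/cre left of LysM+/+, with the mean and SD of each group in black and an axis of its own for each gene. Ndufs4 runs between 9.06 and 9.43 on the LysM+/cre arrays and between 8.53 and 8.97 on the LysM+/+ arrays. Every gene shown is one whose groups do not overlap. That held for 18 of the 80 members and 6 of the 10 subunits of mitochondrial DNA.

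Complex V, ATP synthase, had 17 of 18 members above 0, with a median of 0.22. Of the 18, 7 (38.9%) were higher at an unadjusted p under 0.05, against 6.56% of all genes and 11.5% of bright genes. In the soluble F1 head, where ATP is made, all 5 measured subunits were above 0, with a median of 0.20, and 3 reached that level. Atp5a1, the alpha subunit, had 11.13, 11.19, 11.03 and 11.03 on the LysM+/cre arrays, against 10.90, 10.98 and 10.81 on the LysM+/+ arrays, a difference of 0.20 ± 0.071 (SE, limma adjusted p = 0.408). The catalytic beta subunit Atp5b had 11.88, 11.85, 11.67 and 11.78 on the LysM+/cre arrays, against 11.56, 11.69 and 11.55 on the LysM+/+ arrays, a difference of 0.19 ± 0.072 (SE). Atp5a1 did not overlap between the groups, and Atp5b overlapped narrowly, between LysM+/cre array 3 and LysM+/+ array 2. Atp5e, the epsilon subunit of the stalk, had 10.02, 10.004, 9.68 and 9.78 on the LysM+/cre arrays, against 9.59, 9.56 and 9.11 on the LysM+/+ arrays. The groups did not overlap, and by its brightest probe set it had the largest difference of the complex, 0.45 ± 0.15 (SE, limma adjusted p = 0.402). Without LysM+/+ array 3 this difference was 0.30. A second, dimmer probe set of Atp5e differed by 0.20. With probe sets averaged Atp5e differed by 0.326, less than Atp5md with 0.429.

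The 13 other members of complex V, of the membrane part, the side stalk and the pseudogene, had a median of 0.24. Atp5pb, subunit b of the side stalk, had 9.89, 9.84, 9.72 and 9.79 on the LysM+/cre arrays, against 9.72, 9.47 and 9.53 on the LysM+/+ arrays, a difference of 0.24 ± 0.081 (SE). Atp5md, a small subunit involved in dimers of the enzyme, had 12.47, 12.23, 12.02 and 12.04 on the LysM+/cre arrays, against 11.98, 11.76 and 11.54 on the LysM+/+ arrays, a difference of 0.43 ± 0.15 (SE). Atp5md did not overlap, while Atp5pb touched at LysM+/cre array 3 and LysM+/+ array 1. The genes Atp5g1, Atp5g2 and Atp5g3 encode the same c-ring protein with different targeting sequences. Their differences were 0.031 ± 0.083 (Atp5g1), 0.24 ± 0.14 (Atp5g2) and 0.23 ± 0.098 (Atp5g3) (SE). Atp5g3 had 8.58, 8.86, 8.57 and 8.55 on the LysM+/cre arrays, against 8.44, 8.29 and 8.48 on the LysM+/+ arrays, and did not overlap. The 3 c-ring values without LysM+/+ array 3 were -0.010 (Atp5g1), 0.099 (Atp5g2) and 0.275 (Atp5g3), and those of the stalk and dimer subunits were 0.22 (Atp5pb) and 0.32 (Atp5md). Atp5j2, of the membrane part, was the member below 0, with -0.069 ± 0.14 (SE).

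Members with a motif in their promoter had these medians. The 10 members with the NRF1 core had a median difference of 0.235, and the 54 matched members without it 0.20. The 17 members with the ETS core had a median of 0.31, and the 47 without it 0.20. Atp5e, Sdhd, Cox6b1 and Uqcr11, whose windows are printed, had differences between 0.28 and 0.47, while Uqcrh with the same core had 0.058. Other carriers of the ETS core had low values too, among them Atp5l with 0.060, Cox6a1 with 0.14 and Atp5j with 0.17, which were picked out for being low. All 10 carriers of the NRF1 core and all 17 of the ETS core were brighter than the median gene. The matched members without a core include dim ones. Over all members, the 70 brighter than the median gene had a median of 0.217, and the 10 others 0.039. Members with and without a core thus also differ in brightness. These are descriptions, and the difference between members with and without a motif was not tested.

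**Figure D4:**
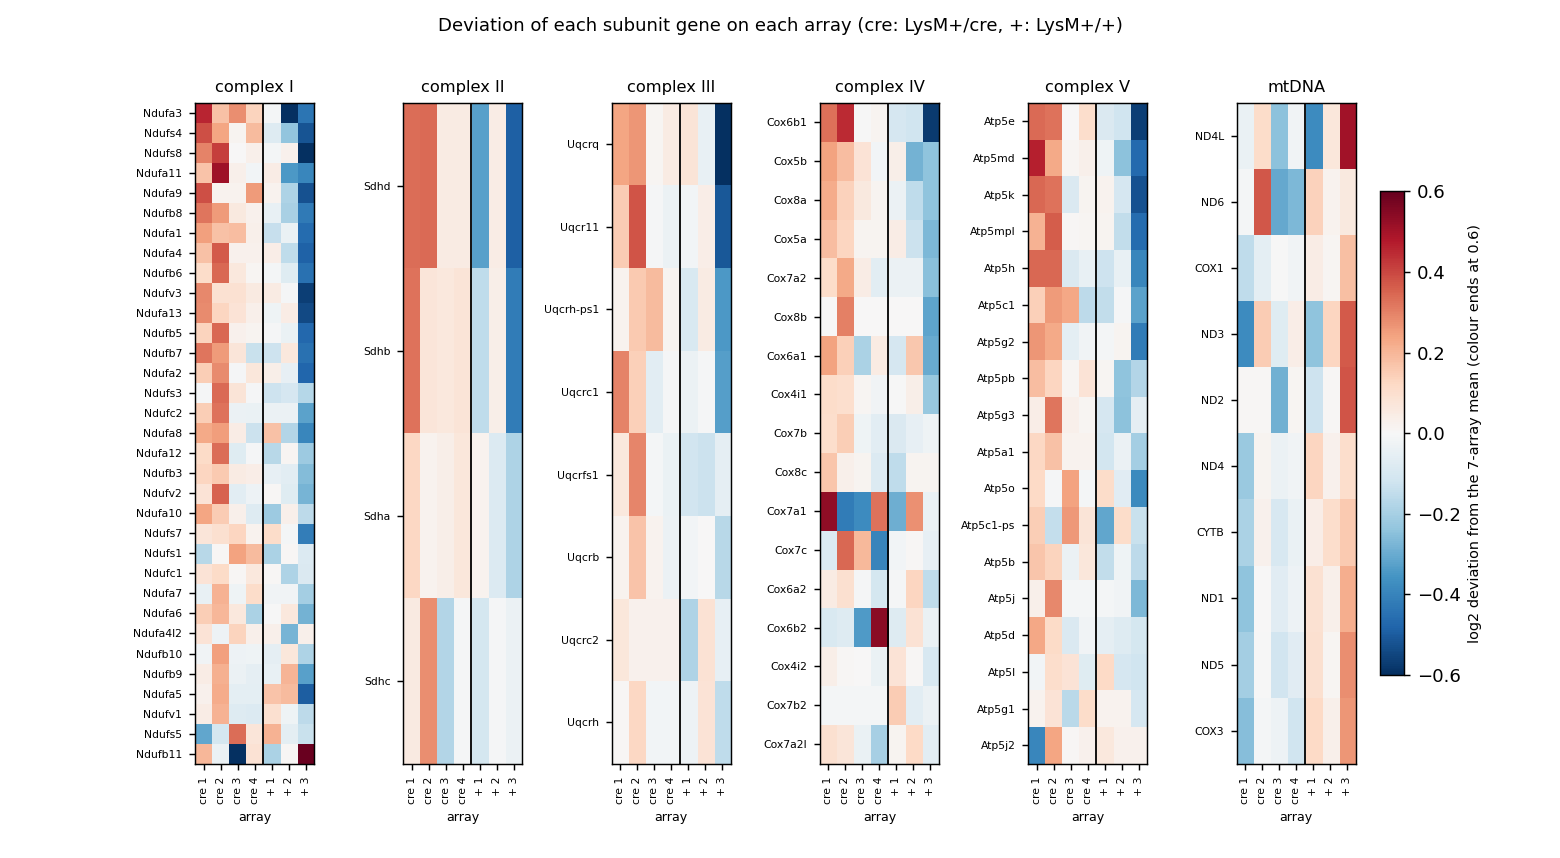
Deviation of each member from its mean over the 7 arrays, in log2 units, by complex, with LysM+/cre arrays left of LysM+/+ arrays. LysM+/+ array 3 is the lowest for 57 of the 80 members, and LysM+/cre array 1 or 2 is the highest for 64.

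The subunits that mitochondrial DNA encodes lay the other way. All 10 that were measured had a difference below 0, with a median of -0.15 and a range from -0.24 to -0.11, and 4 reached an unadjusted p under 0.05, where 4.93% of all genes were lower at that level. The smallest adjusted p was 0.415. In 6 of them every LysM+/cre array lay below every LysM+/+ array, against 3.56% of all genes. COX3, a core subunit of complex IV, had 11.86, 12.10, 12.09 and 11.9985 on the LysM+/cre arrays, against 12.23, 12.15 and 12.38 on the LysM+/+ arrays, a difference of -0.24 ± 0.089 (SE). ND1, a membrane subunit of complex I, had 12.46, 12.71, 12.64 and 12.67 on the LysM+/cre arrays, against 12.80, 12.73 and 12.92 on the LysM+/+ arrays, a difference of -0.20 ± 0.083 (SE). In both, LysM+/cre array 1 was the lowest and LysM+/+ array 3 the highest. ND5, of complex I, differed by -0.22 ± 0.085, and CYTB, the cytochrome b of complex III, by -0.18 ± 0.070 (SE). Over the arrays the median deviation of the 10 was -0.20, 0.012, -0.084 and -0.027 on LysM+/cre arrays 1 to 4, against 0.067, 0.027 and 0.24 on LysM+/+ arrays 1 to 3. The common direction of all 10 rests on LysM+/+ array 3. With that array left out, ND4L was above 0 with 0.105, and ND2 and ND3 were -0.006 and -0.010. The others were then -0.178 (COX3), -0.148 (ND5), -0.148 (CYTB), -0.145 (ND1), -0.144 (ND4), -0.134 (ND6) and -0.086 (COX1). Without LysM+/+ array 3, LysM+/cre array 1 or LysM+/cre array 4, 0 of the 10 reached an unadjusted p under 0.05, and without LysM+/cre array 3 or LysM+/+ array 1 just 1 did. In each of these cases the groups did not overlap in 6, where the share of all genes with every LysM+/cre array below was 7.56% (without LysM+/+ array 3), 4.57% (LysM+/cre array 1), 4.86% (LysM+/cre array 4), 5.37% (LysM+/cre array 3) and 8.80% (LysM+/+ array 1).

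Genes around the chain were described from lists of known members. Cyc1 and Ndufab1, subunits of complexes III and I outside the name patterns, differed by 0.17 ± 0.078 and 0.011 ± 0.068 (SE). Of 52 assembly factors, which build the complexes and are not part of them, 41 were above 0 (78.8%) with a median of 0.14. Of the 52, 46 were brighter than the median gene. At an unadjusted p under 0.05, 9 were higher (17.3%) and 0 lower. Among all genes these shares were 6.56% and 4.93%, and among bright genes 11.5% and 6.59%. In 4 (7.69%) every LysM+/cre array lay above every LysM+/+ array, against 5.23% of all genes and 8.88% of bright genes. Cox10, an enzyme on the path to the heme of complex IV, had 7.48, 7.57, 7.40 and 7.40 on the LysM+/cre arrays, against 7.30, 7.02 and 6.997 on the LysM+/+ arrays, a difference of 0.36 ± 0.094 (SE). Fmc1, known from yeast as an assembly factor of complex V, and Pet100, of complex IV, differed by 0.62 ± 0.17 and 0.55 ± 0.16 (SE), with no overlap between the groups in any of the 3. Leaving out LysM+/+ array 3 gave 0.305 (Cox10), 0.53 (Fmc1) and 0.355 (Pet100). Of 18 genes of pyruvate dehydrogenase and the citric acid cycle, all brighter than the median gene, 14 were above 0 (77.8%) with a median of 0.13. At an unadjusted p under 0.05, 3 were higher (16.7%), against 6.56% of all genes and 11.5% of bright genes. The 3 were Dlst, of the 2-oxoglutarate dehydrogenase complex, with 0.22 ± 0.065, and the isocitrate dehydrogenase subunits Idh3a, with 0.64 ± 0.19, and Idh3b, with 0.22 ± 0.075 (SE).

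Of 17 genes for electron carriers and other dehydrogenases that feed the chain, 11 were above 0 with a median of 0.058, and 0 reached an unadjusted p under 0.05. This median was -0.008 without LysM+/cre array 1 and -0.033 without LysM+/+ array 1. Of 16 regulators of mitochondrial biogenesis, 8 were above and 8 below 0, with a median of 0.016 that was -0.037 without LysM+/cre array 3 and -0.011 without LysM+/cre array 4. Ppargc1b, a coactivator of mitochondrial genes, was lower at an unadjusted p under 0.05, with 5.94, 6.25, 5.82 and 5.83 on the LysM+/cre arrays, against 6.14, 6.63 and 6.39 on the LysM+/+ arrays. Its groups overlapped through LysM+/cre array 2, and the difference was -0.42 ± 0.15 (SE, limma adjusted p = 0.413). Yy1 and Tfb1m, a mitochondrial rRNA methyltransferase, differed by 0.20 ± 0.084 and 0.41 ± 0.18 (SE).

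**Figure D5:**
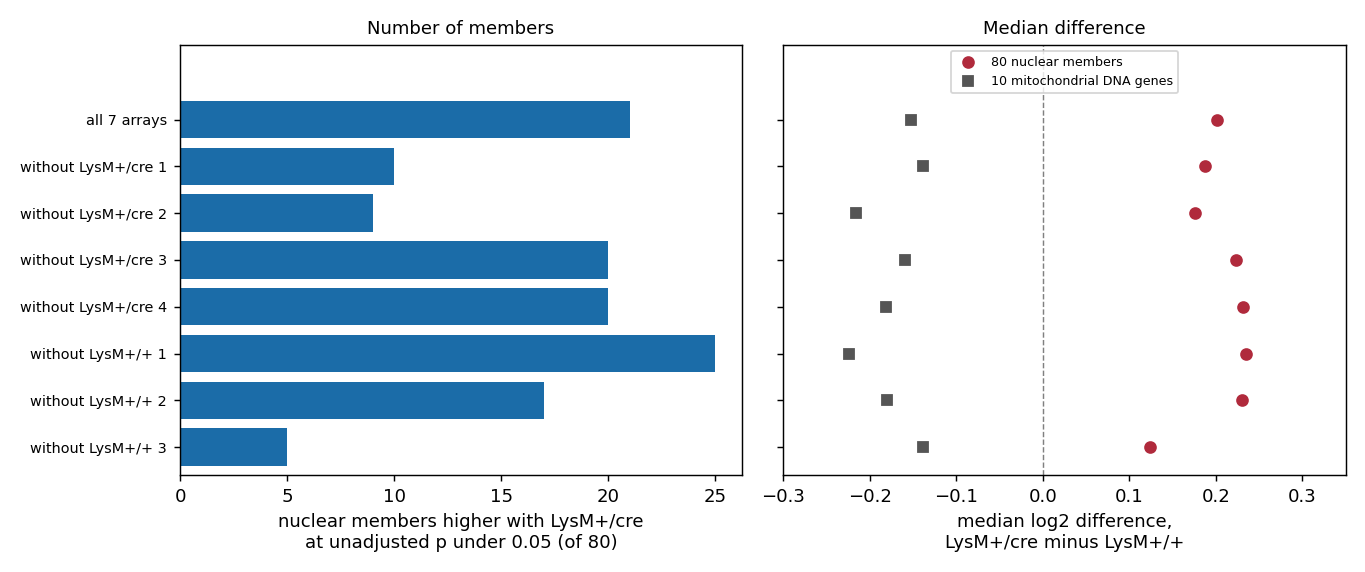
Number of the 80 members higher at an unadjusted p under 0.05 (left, bars) and median log2 difference of the members and of the 10 subunits of mitochondrial DNA (right, points), with all arrays and with each array left out. The number runs from 5 without LysM+/+ array 3 to 25 without LysM+/+ array 1, and the members' median from 0.12 to 0.235 for the same 2 arrays.

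Array medians ran from 5.16 to 5.22 on the log2 scale, and the profiles correlated at 0.972 to 0.982 within genotypes and 0.968 to 0.977 between them. Rictor did not separate the groups, with a difference of 0.12 ± 0.13 (SE, limma adjusted p = 0.749). Which exons its probe set reads is not known here, so this does not check the labels. Lyz2, the locus that drives cre, overlapped between the groups, with a difference of -0.13 ± 0.13 (SE, limma adjusted p = 0.722). All 11 measured macrophage and gate markers were brighter than the median gene, 7 of them had differences above 0, and their median deviation was -0.23 on LysM+/+ array 3. Among the genes of markers that the sort selected on, Fcgr1 (CD64) and Itgam (CD11b) differed by 0.97 ± 0.26 and 0.53 ± 0.19 (SE). Ptprc (CD45) differed by 0.25 ± 0.11 and H2-Ab1 (MHC class II) by -0.044 ± 0.23 (SE). Their limma adjusted p were 0.362, 0.415, 0.438 and 0.952. The lysosomal protein gene Cd68 differed by -0.20 ± 0.079 (SE, limma adjusted p = 0.419). Markers of other cells differed between the arrays too. Of 16 fibroblast and smooth muscle markers, 15 brighter than the median gene, 14 were below 0. The summed linear signal of the 16 was 2460 to 4150 on the LysM+/cre arrays and 4910 to 6450 on the LysM+/+ arrays. The groups did not overlap in 1 of the 16, Dcn, with 9.64 to 10.45 on the LysM+/cre arrays against 10.94 to 11.93 on the LysM+/+ arrays. Dcn was the brightest of the 16 and weighs most in these sums. Col3a1 and Col1a1 were above 0, with 0.17 and 0.037. Of 15 epithelial markers, all brighter than the median gene, 14 were below 0, with summed signals of 2310 to 4680 on the LysM+/cre arrays and 1660 to 6200 on the LysM+/+ arrays. Of 10 endothelial markers, 5 brighter than the median gene, 9 were below 0, with sums of 853 to 1050 on the LysM+/cre arrays and 537 to 1270 on the LysM+/+ arrays. LysM+/+ array 3 had the highest epithelial and endothelial sums. Of 13 neutrophil markers 11 were above 0, with sums of 2340 to 6970 on the LysM+/cre arrays and 1340 to 3660 on the LysM+/+ arrays, and 10 of them were brighter than the median gene. Differences were below 0 for 3 of 5 dendritic cell markers, with sums of 554 to 1200 on the LysM+/cre arrays and 582 to 1390 on the LysM+/+ arrays, and for 3 of 8 mast cell and eosinophil markers, with sums of 261 to 401 on the LysM+/cre arrays and 351 to 731 on the LysM+/+ arrays. Both of these sums were highest on LysM+/+ array 3 as well, where the mast cell gene Cpa3 was 6.61, against at most 4.18 on the other arrays. Differences were below 0 for 7 of 9 T and NK cell and 1 of 5 B and plasma cell markers. With the fibroblast score as a covariate 73 of the 80 members were above 0 (50% of all genes) with a median of 0.26, and 11 were higher at an unadjusted p under 0.05 (3.61% of all genes), while 7 of the 10 mitochondrially encoded subunits were below 0 with a median of -0.053. The part of the other markers in these results was not tested.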

How the data were processed

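For each of 7 arrays the authors deposited 1 log2 intensity per probe set. Per the labels, Affymetrix Expression Console was used, and the submitters' processing notes also name Transcriptome Analysis Console. How signals were summarised and corrected for background is not given in the sources used, and a shift shared by all genes would be lost in normalization between arrays.

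Of 41345 probe sets, 23521 had 1 symbol in the platform annotation, 1814 had several and 16010 had none listed. The brightest of several probe sets was kept for 1082 genes, without a filter on dim values. LysM+/cre was set against LysM+/+ by limma 3.58.1 (R 4.3.3; lmFit, then eBayes, two-sided, Benjamini-Hochberg over 22180 genes, threshold 0.05), and the code was tested on simulated data. Medians and counts over members have no test.

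Members named with values were those of complex II, in each other complex the 5 of smallest p and the 2 of most negative difference, and members listed by role or as tissue isoforms. From each further pathway list came up to 3 of smallest p. The members and lists were chosen with earlier results of these data known. Of the 80 members 27 (33.8%) had identical values on 2 or more arrays, against 53.8% of all genes. Alternatives were other scalings, probe set rules, variance models, a fibroblast score, each array left out in turn and the replicate number as a block. Plots come from matplotlib 3.10.9.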

Additional observations from a re-analysis of the deposited data

Results flagged for a closer look

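Of 47 named members, 5 had 1 LysM+/cre array that stood apart from the other 3, where chance alone sets apart about 1 in 20 groups. Sdhb was 9.14 on LysM+/cre array 1, where the others lay at 8.88 to 8.89. Uqcrc2 was 9.0 on LysM+/cre array 1, where the others were at 8.96. Uqcrh was 7.15 on LysM+/cre array 2, where the others lay at 7.01 to 7.03. Atp5g3 was 8.86 on LysM+/cre array 2, where the others lay at 8.55 to 8.58. Cox8b was 4.60 on LysM+/cre array 2, where the others were at 4.31, a value shared by several arrays. In all 5 the array apart was the higher one and was LysM+/cre array 1 or 2, and the cause was not tested.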

How the results depend on the processing

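No member passed an adjusted p of 0.05 under any alternative, and 7 arrays limit the precision throughout. The 21 members higher at an unadjusted p under 0.05 (6.56% of all genes) became 30 with array medians set equal (9.02%). They became 10 with quantile normalization (5.94%) and 11 with the fibroblast score (3.61%). With 1 array left out they numbered 5 (without LysM+/+ array 3, 4.55%) to 25 (without LysM+/+ array 1, 7.02%). All genes at that level numbered 1383 with the fibroblast score and 1693 (without LysM+/cre array 1) to 2779 (without LysM+/+ array 1) with 1 array left out. The median of the biogenesis regulators was 0.052 with array medians equal, 0.042 among bright genes, -0.001 after quantile normalization, -0.052 with the fibroblast score and -0.037 to 0.050 with 1 array left out. The median of the electron carriers was -0.033 to 0.108 and that of the assembly factors 0.099 to 0.212 (without LysM+/+ array 2) with 1 array left out. The causes were not tested.

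The samples share replicate numbers, but the deviations of arrays with the same number correlated at -0.115, 0.121 and 0.103, so the numbers are not shown to pair them. With the replicate number as a block 32 members were higher at an unadjusted p under 0.05 (5.58% of all genes), and the regulators' median was -0.011. Under this block Cox7a2l was 0.019, Atp5g1 -0.002, Cox6b2 -0.162 and Cox7a1 -0.068. The block uses only the arrays whose number both groups have.

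Differences near 0 changed sign elsewhere. With array medians equal Ndufs5 was 0.029 and Cox7b2 0.006. After quantile normalization Ndufs5 was 0.012 and Ndufv1 -0.002. With array weights Cox4i2 was -0.002. With the fibroblast score Atp5j2 was 0.282, Cox7a1 -0.493 and Cox8c -0.002. With 1 array left out Ndufs5 ran from -0.118 to 0.097, Ndufv1 from -0.010 to 0.116, Uqcrh from -0.001 to 0.115, Atp5j2 from -0.158 to 0.051, Atp5g1 from -0.010 to 0.090 and Cox7a2l from -0.084 to 0.019. Among isoforms Cox4i2 ran from -0.042 to 0.047, Cox6a2 from -0.053 to 0.089, Cox6b2 from -0.162 to 0.133, Cox7a1 from -0.138 to 0.181 and Cox7b2 from -0.071 to 0.037.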
